A study of Mus musculus with 3 samples.

Results

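The regions described here are 1034 peaks of L1 RNA chromatin isolation (ChIRP-seq) that lie near the distal ends of the mouse autosomes. A peak was taken when its midpoint fell within 10 Mb of the end of the last peak of the same chromosome, on chromosomes 1 to 19. They were chosen among 21985 autosomal peaks and 24666 peaks in all, and the other 20951 autosomal peaks served as the rest. The rule used position alone, not the number, width or spacing of peaks, but it fixes each end at a peak. It was chosen with earlier results of these data known. The cells were E14 ES cells, an established line of mouse embryonic stem cells grown with leukemia inhibitory factor. In ChIRP, biotinylated DNA probes capture an RNA together with the chromatin crosslinked to it. The probes here were 59 nt long, and the chromatin was sheared to 2 to 5 kb. The series has 3 libraries of these cells, 1 each for L1 RNA, Malat1 RNA and input DNA. The values below come from the peak list of the L1 library. Those of Malat1 and input were not used here. There was 1 library and no replicate, so the error between replicates is unknown for every difference below and no p-value is given.

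L1 (long interspersed element 1) is a retrotransposon that copies itself through an RNA and has left very many copies in the mouse genome, most of them cut short at their 5′ end. Full-length copies carry a promoter and encode the proteins needed for retrotransposition, and L1 RNA is known to be present in embryonic stem cells. L1 copies are known to be more common in gene-poor, AT-rich sequence and less common in gene-dense, GC-rich sequence. Mouse chromosomes have the centromere at one end, so each autosome has a single distal end, far from the centromere, where positions are highest. A peak marks where the authors' caller found signal, and the labels do not settle whether DNA or retrieved RNA was sequenced.

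The distal windows held fewer peaks for their length than the rest of the autosomes. Over 190 Mb of distal sequence there were 1034 peaks, or 5.44 per Mb (exact 95% Poisson interval 5.12 to 5.78). The rest held 9.45 per Mb (9.32 to 9.58) over 2218 Mb of span. The ratio of the densities was 0.576 (95% binomial counting interval 0.541 to 0.613). Distal windows made up 7.89% of the autosomal span and 4.70% of the autosomal peaks (exact binomial interval 4.43 to 4.99). These intervals cover counting error only and treat peaks as independent, although peaks cluster. Peaks covered 3.60% of the distal sequence and 6.22% of the rest, a ratio of 0.578, so that bases and numbers of peaks gave nearly the same deficit. At the opposite end, the 10 Mb of span nearest the centromere held 2412 peaks, or 12.7 per Mb, and 16 of 19 autosomes had fewer peaks in the distal window than there.

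The deficit differed between autosomes. The mean distal density over the 19 autosomes was 5.44 ± 3.47 peaks per Mb (SD over autosomes), whereas the rest had 9.23 ± 1.52. A distal value comes from a single window of 10 Mb and a value of the rest from a far longer span, so these SDs are not set against each other. The distal density was below that of the same autosome's rest on 17 of 19 autosomes, and on 10 of them the distal to rest ratio was below 0.5. The median ratio was 0.477, and the range ran from 0.0887 on chromosome 11 to 1.54 on chromosome 18. The lowest value rests on the lone last peak of chromosome 11: with the end set at the second-last peak its ratio was 0.353, and that of chromosome 16 was then the lowest at 0.242. Autosomes rich in peaks elsewhere were not regularly rich in them at their distal end. Across the 19 autosomes, which all come from 1 library, the distal density and the density of the rest had a Spearman rho of 0.169 and a Pearson r of 0.323, given as a description. Chromosome 1, for instance, ranked 2 of 19 by the density of its rest (11.3 per Mb) and 12 by its distal density (3.90). Chromosome 18 ranked 16 by its rest and 1 by its distal end. Others ranked alike in both: chromosome 3 ranked 1 by its rest and 3 by its distal end, and chromosome 11 ranked 19 by each.

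**Figure D1:**
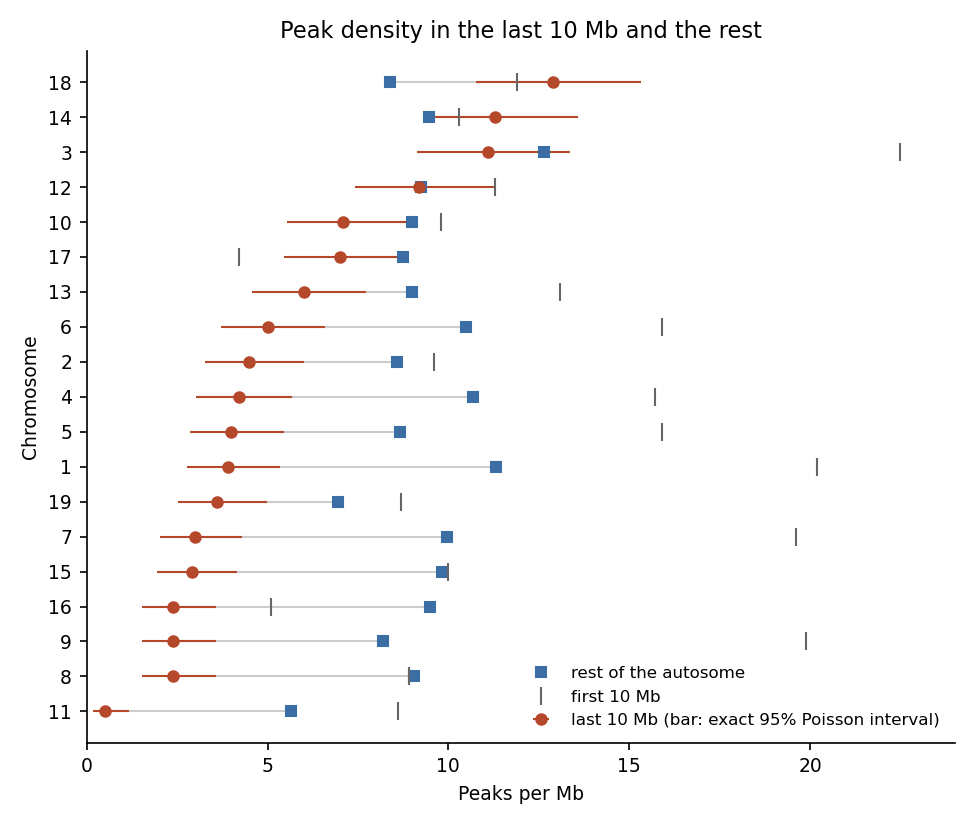
Peaks per Mb (x axis) on each autosome (y axis, ordered by distal density) in the last 10 Mb (circles, with exact 95% Poisson intervals that cover counting error only), in the rest of the autosome (squares) and in the first 10 Mb of span (ticks). Chromosomes 18 and 14 have circles to the right of their squares, chromosome 12 has both at the same place (9.20 and 9.24), and chromosome 11 stands at the lower left with 0.50 per Mb.

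In order of distal density, chromosome 18 came first with 129 peaks in the window, followed by chromosome 14 with 113, chromosome 3 with 111 and chromosome 12 with 92. Their counting intervals overlap for neighbours in this order, so 18 and 14 cannot be ordered by these counts (10.8 to 15.3 and 9.31 to 13.6 per Mb). The first 3 held 353 peaks, or 34.1% of all distal peaks. Chromosomes 10 and 17 followed with 71 and 70 peaks, then chromosome 13 with 60, chromosome 6 with 50, chromosome 2 with 45, chromosome 4 with 42, chromosome 5 with 40, chromosome 1 with 39 and chromosome 19 with 36. Chromosome 7 held 30 and chromosome 15 held 29. Chromosomes 8, 9 and 16 each held 24, and chromosome 11 held 5. The 8 sparsest windows together held 211 peaks, or 20.4%.

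Set against other windows of 10 Mb counted inward on the same autosome, the distal window was the sparsest of all on 3 autosomes, chromosomes 1, 11 and 16. On chromosome 1 it held 39 peaks, and the other 18 windows held more, up to 204. On chromosome 16 it held 24, and the other 8 windows held up to 144. Chromosome 18 was the opposite case, since its distal window was the densest of 8. On chromosome 14 the distal window was denser than 8 of the other 11 windows, and on chromosomes 3, 12 and 17 it lay near the middle, with 7, 5 and 4 sparser windows and 7, 5 and 4 denser ones.

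Within the 10 Mb, the peaks were not spread evenly, and density did not fall steadily toward the end. The last 1 Mb held 262 peaks, or 13.8 per Mb, which was 25.3% of all distal peaks. The step from 1 to 2 Mb held 121 peaks (6.37 per Mb), and each of the 8 steps from 2 to 10 Mb held between 67 and 104 (3.53 to 5.47 per Mb). From 1 to 10 Mb the density was 4.51 per Mb, or 0.478 of that of the rest. On 16 of 19 autosomes the last 1 Mb was denser than the mean of the next 9 Mb, the exceptions being chromosomes 2, 4 and 6. The last 1 Mb was above the autosome's own rest on 9 of 19 autosomes and below it on 10. Its peaks were concentrated on few chromosomes: the 5 with the most (18, 3, 14, 12 and, with 19 each, 8 or 17) held 154 of the 262 peaks, or 58.8%, and the median autosome had 10.

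By definition the window ends at a peak, and peaks lie in clusters. In the rest of the autosomes, the 1 Mb that ends at a peak held on average 15.1 ± 7.61 peaks (SD over 20680 peaks, quartiles 9 and 20), the peak itself included. The last 1 Mb of the autosomes, at 13.8 ± 12.6 (n = 19 autosomes), had a mean no higher than that. Peaks of the rest that were followed by over 1 Mb without a peak had 8.70 ± 8.01 peaks in the 1 Mb up to them (n = 233). The mean of the last 1 Mb lay above this 8.70. A last peak also has no peak after it, but chromosome lengths were not used. How much sequence follows a last peak is thus unknown, and it may not be like a peak before such a stretch. The medians were 10 for the last 1 Mb, 15 for all peaks of the rest and 6 for those before such a stretch. The spread over autosomes was wide, from 1 peak on chromosomes 4 and 11 to 45 on chromosome 18. The highest value among the peaks of the rest was also 45. This comparison was added after the profile had been seen.

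**Figure D2:**
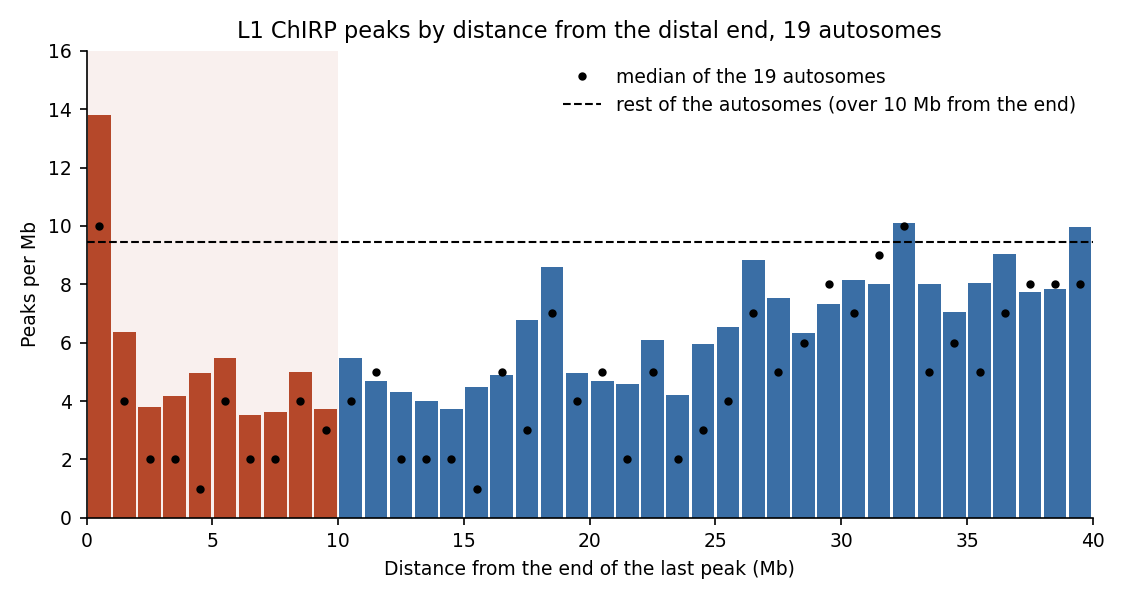
Peaks per Mb, averaged over the 19 autosomes (bars), and the median of the 19 autosomes (dots), in steps of 1 Mb against the distance from the end of the last peak; the first 10 Mb (red) are the distal windows and the dashed line is the density of the rest, 9.45 per Mb. The last 1 Mb stands at 13.8, and the other bars out to 25 Mb lie between 3.53 and 6.79, except that from 18 to 19 Mb (8.58), all below the dashed line.

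The sparse sequence did not stop at 10 Mb. From 10 to 15 Mb there were 4.44 peaks per Mb (4.03 to 4.89), which overlaps the 4.36 per Mb (3.78 to 4.99) found from 7.5 to 10 Mb. Density was 5.94 per Mb from 15 to 20 Mb, 5.11 from 20 to 25 Mb, 7.31 from 25 to 30 Mb, 8.39 from 30 to 40 Mb and 8.71 from 40 to 50 Mb. The 10 Mb next to the distal windows held 5.19 per Mb, and 16 of 19 autosomes were below their own rest there too. The distal window held fewer peaks than this neighbouring window on 8 of 19 autosomes. The 10 Mb limit therefore cuts through a longer sparse stretch. Of the peaks nearest to the limit, that of chromosome 15 from 93519747 to 93527497 lay 9.97 Mb from the end and was counted, and that of chromosome 14 from 115143625 to 115145951 lay 10.03 Mb from it and was not. Within 500 kb of the limit there were 40 peaks inside and 44 outside.

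Divided at 5 Mb, the 2 parts of the window differed. In the inner part, 5 to 10 Mb from the end, there were 406 peaks, or 4.27 per Mb, and on 19 of 19 autosomes the density was below that of the rest. In the outer part there were 628 peaks, or 6.61 per Mb, and 5 autosomes exceeded their rest: chromosome 18 with 106 peaks in these 5 Mb (21.2 per Mb), chromosome 3 with 84, chromosome 14 with 74, chromosome 12 with 60 and chromosome 17 with 58 (11.6 per Mb). Chromosomes 4 and 11 had 2 peaks each in the outer part, chromosome 9 had 7, chromosome 15 had 9 and chromosome 19 had 10. The outer part held more peaks than the inner part on 11 autosomes and fewer on 8.

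**Figure D3:**
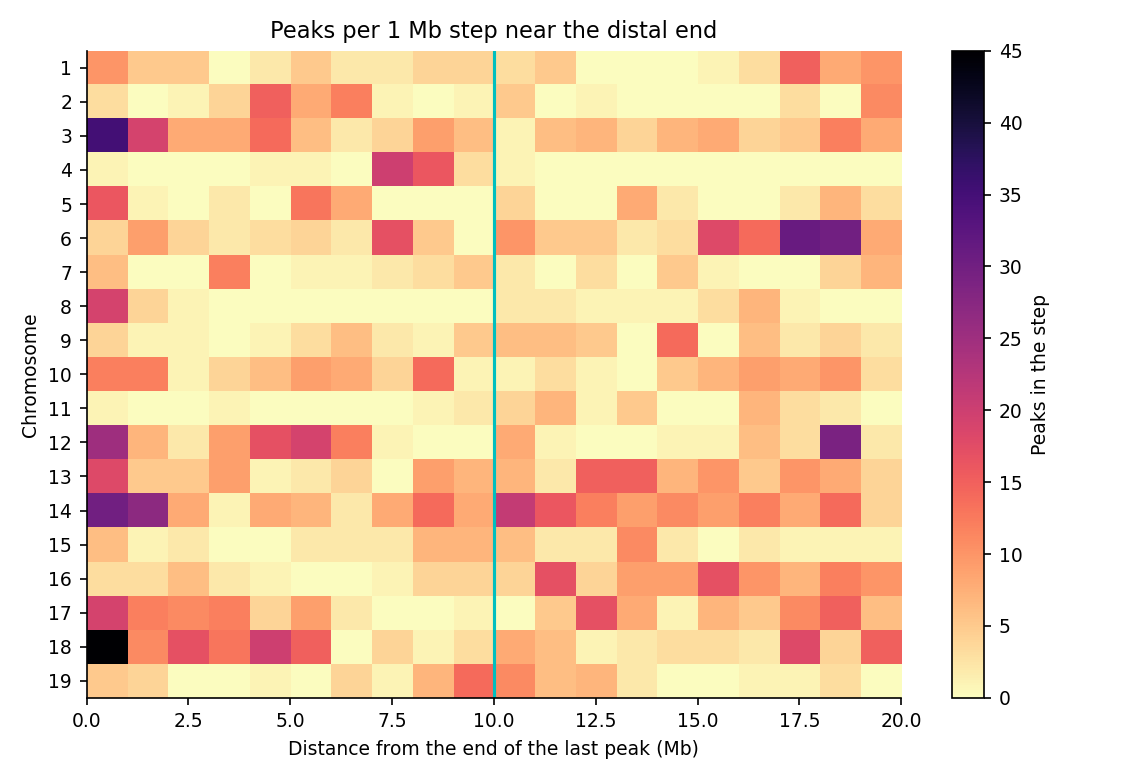
Number of peaks (colour, 0 to 45) in each 1 Mb step by distance from the end of the last peak (x axis, 0 to 20 Mb) on each autosome (y axis); the vertical line marks 10 Mb. Dark cells at the left edge on chromosomes 18, 3, 14 and 12 hold 45, 35, 30 and 25 peaks, while chromosomes 4, 8 and 11 have long runs of steps without a peak.

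Chromosomes 18 and 14 broke the trend. The distal window was denser than the rest in all 10 alternatives tried for chromosome 18, and in 9 of 10 for chromosome 14. These alternatives count many of the same peaks, so the tally is not independent support, and some margins were small. Chromosome 18 had 9.20 per Mb against 8.39 with the window moved 1 Mb inward. Chromosome 14 had 8.90 against 8.16 with peaks closer than 5 kb merged. On chromosome 18 the distal window held 12.9 peaks per Mb against 8.39 in its rest, a ratio of 1.54. Its excess lay in the outer 5 Mb, which held 106 of the 129 peaks, and the inner 5 Mb held 23, or 4.60 per Mb, below the rest. The last 1 Mb, from 89652170 to 90652169 (mm9), held 45 peaks, the most of any distal step, which covered 27.4% of it. Without that step, the next 9 Mb held 84 peaks, or 9.33 per Mb (exact 95% Poisson interval 7.44 to 11.6), which includes the 8.39 of the rest. The last peak of chromosome 18, from 90629598 to 90652169, was 22572 bp wide and lay 57.0 kb from its neighbour.

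On chromosome 14 the window held 11.3 peaks per Mb against 9.48 in its rest, a ratio of 1.19 that lies within counting error of 1, since the interval of the distal density (9.31 to 13.6) includes the density of the rest. The last 2 Mb held 57 peaks in steps of 30 (from 124178006 to 125178005) and 27 (from 123178006 to 124178005), and the next 9 Mb after the last step held 9.22 per Mb, or 0.973 of the rest. Chromosome 14 was above its rest farther inward as well, with 11.6 peaks per Mb from 10 to 20 Mb. Chromosomes 6 and 16 were the other two of which this held, with 12.6 and 9.90 per Mb. Its peaks were also wide at the distal end. Their median width was 6771 bp, against 5660 bp in its rest, and they covered 8.06% of the window against 5.54% of the rest. Among peaks wider than the autosomal median, the chromosome 14 window held 6.60 per Mb against 3.93 in its rest, whereas among narrower peaks it was not above its rest.

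Chromosome 12 was level, with 9.20 peaks per Mb in the window and 9.24 in the rest. It was denser than its comparison in 4 of the 10 alternatives tried, for instance by 9.20 to 9.03 per Mb when the first 10 Mb of span were left out of the rest. Distal chromosome 12 is known to carry the immunoglobulin heavy chain locus, but no gene was placed on these positions, so an overlap with peaks was not tested. The peaks of this window were densest in 2 places, with 25 in the last 1 Mb (from 120235856 to 121235855) and 48 between 4 and 7 Mb from the end, and the 3 steps from 7 to 10 Mb held 1. Chromosome 3, the autosome with the densest rest (12.7 per Mb), had 11.1 per Mb in the window, with 35 peaks in the last 1 Mb (from 158481176 to 159481175), which covered 28.7% of it. It was the only autosome whose window was touched by no stretch of over 1 Mb without a peak. Chromosomes 17 and 10 had ratios of 0.800 and 0.788. On chromosome 17, 58 of 70 peaks lay in the outer 5 Mb, and on chromosome 10 the 2 parts were even, with 35 and 36.

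The sparsest windows were those of chromosomes 11, 16, 8 and 9. Chromosome 11, known as a gene-dense chromosome, held 5 peaks in the window, or 0.50 per Mb (0.162 to 1.17), against 5.64 in its rest. Its last peak, from 121757519 to 121761283, lay 3.51 Mb from the next peak inward, so the position of the window rested on a single peak. With the end set at the second-last peak instead, the window of chromosome 11 held 20 peaks, or 2.00 per Mb, against 5.67 in its rest, and 2 of the other 10 windows of that chromosome were then sparser. Chromosome 16 had 2.40 per Mb against 9.50 (a ratio of 0.253), with no step above 6 peaks. Chromosome 9 had 2.40 against 8.19, with no step above 6 peaks either. Chromosome 8 had the same number as both but another arrangement: 19 of its 24 peaks lay in the last 1 Mb (from 130736499 to 131736498), and the inner 5 Mb held 0 peaks, for which a one-sided limit of 3 counts allows up to 0.60 per Mb.

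Chromosome 4 also showed a different arrangement within its window. Of its 42 peaks, 40 lay in the inner 5 Mb, 20 of them between 7 and 8 Mb from the end (from 144126519 to 145126518). Its last peak, from 152119511 to 152126518, was alone, 4.94 Mb from its neighbour, the greatest distance of any distal peak. With the end set at the second-last peak, the window lay farther inward and the arrangement turned, with 41 peaks in the outer 5 Mb and 1 in the inner, so the position of the peaks within the window rested on that single peak. Just inward of the window, from 10 to 20 Mb, chromosome 4 held 1 peak.

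Long stretches without a peak were frequent in the distal windows. Stretches of over 1 Mb took up 88.2 Mb, or 46.4%, of the distal sequence and 20.9% of the rest. There were 44 that lay in or reached into a window, on 18 of 19 autosomes, among 273 on all autosomes. The longest was on chromosome 8 from 121289369 to 128746161 and measured 7.46 Mb. Next was 5.33 Mb on chromosome 11, between 112917226 and 118242495. Then came 4.94 Mb on chromosome 4, between 147176933 and 152119510, and 3.75 Mb on chromosome 5, between 142407167 and 146153456. The fifth, again on chromosome 11, measured 3.51 Mb between 118250417 and 121757518, and stretches of over 1 Mb took up 8.83 of the 10 Mb there. Of 190 steps of 1 Mb, 43 were without a peak (22.6%), against 239 of 2209 (10.8%) in the rest. Steps with 20 or more peaks numbered 7 (3.68%), against 250 (11.3%) in the rest. These 7 lay on 5 autosomes and held 202 of the 1034 distal peaks, in counts of 45, 35, 30, 27, 25, 20 and 20. Steps without a peak were also found just inward of the windows. Each step from 10 to 20 Mb lacked peaks on 1 to 7 autosomes, against 0 to 6 for the steps of the windows. Gaps in the assembly were not removed from any of these lengths.

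Distal gaps between peaks were longer than those of the rest in the 10 Mb windows, most of all in the upper part of their range. The median gap between neighbouring distal peaks was 43.7 kb (95% interval of the median by order statistics 39.6 to 48.6), against 35.7 kb in the rest (35.0 to 36.6). The lower quartiles were close, 11.6 and 10.8 kb, whereas the upper quartiles were 126 and 92.6 kb and the 90th percentiles 343 and 207 kb. Gaps under 1 kb made up 8.47% of distal gaps and 8.99% of those in the rest. Among distal peaks, 37.9% had another peak within 10 kb (392 of 1034, exact binomial interval 34.9 to 40.9), against 40.3% in the rest (39.6 to 41.0), so these intervals overlap. The pooled share mixes 59.5% (53.3 to 65.5) in the last 1 Mb with 30.6% (27.3 to 34.0) from 1 to 10 Mb, which lie above and below the interval of the rest. Both measures turned with a window of 5 Mb, where the median gap was 32.3 kb against 36.2 kb in the rest and the share within 10 kb was 44.9%, above that of the rest. Within 50 kb the shares were 72.7% (69.9 to 75.4) and 79.5% (78.9 to 80.0). The intervals of all these shares treat peaks as independent, although close peaks count each other as neighbours. They are therefore likely too narrow, and whether they overlap is not a test. Peaks more than 100 kb from any other made up 14.4% (12.3 to 16.7) of distal peaks and 8.67% (8.29 to 9.06) of the rest, and those more than 500 kb from any other 2.90% and 0.582%. Wide spacing was not particular to the windows. The median gap was 65.9 kb from 10 to 15 Mb and 42.0 kb from 15 to 20 Mb. The shares with a neighbour within 10 kb were 26.1% and 32.1% there.

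Spacing varied among the autosomes. The median distal gap was longer than that of the same autosome's rest on 13 of 19. On chromosome 11 it was 2091 kb, over 4 gaps. It reached 200 kb on chromosome 16, 161 kb on chromosome 9 and 124 kb on chromosome 15, and was shortest on chromosome 5 with 13.9 kb, chromosome 8 with 18.8 kb and chromosome 18 with 21.4 kb. On chromosomes 5 and 8 the windows were sparse but their few peaks lay close together: 62.5% and 70.8% of their distal peaks had a neighbour within 10 kb, the highest shares of the 19. On chromosomes 2, 15 and 11 the shares were 4.44%, 10.3% and 0%.

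Long chains of close peaks were found near the very end of a few autosomes. There were 20 chains of 4 or more peaks with gaps under 10 kb, which held 107 peaks (10.3% of distal peaks), against 7.26% of the peaks of the rest. Chains of 3 went the other way, with 5.51% of distal peaks and 9.62% of the rest, so that chains of 3 or more held 15.9% and 16.9%. The 1 Mb steps of the last 2 Mb held 262 and 121 of the 1034 distal peaks, and 14 of the 20 chains lay there. Of the 20, chromosome 18 had 6 with 36 peaks, chromosome 14 had 4 with 29 and chromosome 3 had 3 with 14. The longest chain, on chromosome 18 from 90425308 to 90572613, held 12 peaks over 147 kb and was 79.9% covered, and no chain in the rest held more than 10 peaks. Next was a chain of 9 on chromosome 14 from 125091732 to 125178005, which includes the last peak of that chromosome. Chains of 7 lay on chromosome 14 from 123451965 to 123539627 and from 124070140 to 124140516.

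Median and quartile widths of the distal peaks lay close to those of the rest. Their median was 6335 bp (6208 to 6511), against 6371 bp (6340 to 6406) in the rest, a difference of -36 bp. The median of the rest lies within the counting interval of the distal median. The quartiles were 4102 and 8186 bp in the windows and 4110 and 8146 bp in the rest. Peaks of 6 to 7.5 kb, a length near that of a full-length mouse L1, numbered 258 of 1034 in the windows (exact binomial interval 22.3% to 27.7%) and made up 23.3% of the rest (22.7 to 23.9). Peaks over 10 kb made up 11.9% and 12.1%, and peaks under 2 kb 4.35% and 4.29%. Within classes of spacing the medians also lay close. For peaks with a neighbour within 10 kb they were 6063 bp in the windows and 6058 bp in the rest, and for peaks over 100 kb from any other 6507 and 6436 bp. The widest peak was 25980 bp in the windows and 41011 bp among the far more numerous peaks of the rest.

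**Figure D4:**
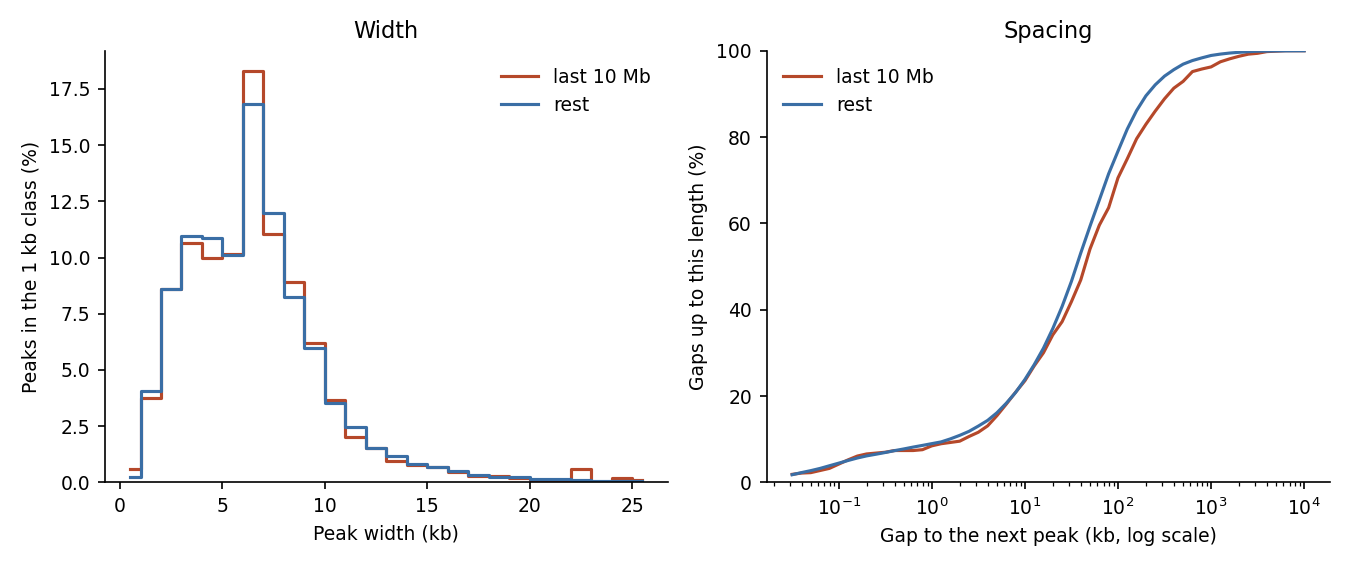
Left, the percent of peaks in each 1 kb class of width up to 26 kb for the last 10 Mb (red, 1034 peaks) and the rest (blue, 20951 peaks, the widest of which reach 41 kb and are not drawn). Right, the percent of gaps between neighbouring peaks up to a given length (log axis); the width curves overlie each other, and the gap curves part above about 20 kb, where the distal curve runs lower.

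The distal medians of single autosomes differed, but they rest on 5 to 129 peaks each and no interval was computed for them. Scatter from these counts was not separated from differences between autosomes. The distal median was below that of the same autosome's rest on 10 of 19 and above it on 9. It was highest on chromosome 7 with 7492 bp (5646 bp in its rest, 30 distal peaks) and lowest on chromosome 11 with 3765 bp, where it rests on 5 peaks, and on chromosome 5 with 5223 bp (6592 bp in its rest, 40 distal peaks). In zones of 2.5 Mb from the end inward, the median was 6451, 6438, 6116 and 6302 bp. The share of peaks over 10 kb in these zones was 14.4% (61 of 425), 11.8% (24 of 203), 12.1% (24 of 199) and 6.76% (14 of 207).

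Of the 5 widest distal peaks, 4 lay within 1 Mb of an end. The widest of all, 25980 bp on chromosome 8 from 131710519 to 131736498, was the last peak of that chromosome and lay 0.314 kb from its neighbour. Chromosome 3 held peaks of 24352 bp (from 158820886 to 158845237) and 24142 bp (from 159212499 to 159236640), 0.65 and 0.26 Mb from the end. Then came chromosome 7 with 22824 bp (from 147695275 to 147718098), 3.16 Mb from the end, and chromosome 18 with 22821 bp (from 90433315 to 90456135). Of the 10 distal peaks over 20 kb, 7 lay in the last 1 Mb, which held 25.3% of all distal peaks. Peaks over 20 kb were 0.967% of distal peaks and 0.726% of the rest. The narrowest distal peaks were 606 bp on chromosome 17 (from 94078788 to 94079393), 803 bp on chromosome 12 (from 114680371 to 114681173), 841 bp on chromosome 15 (from 97223704 to 97224544), 858 bp on chromosome 10 (from 123889995 to 123890852) and 868 bp on chromosome 3 (from 152651508 to 152652375).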

How the data were processed

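L1 RNA ChIRP-seq of E14 ES cells gave 1 peak list deposited by the authors, with 3 columns (chromosome, start and end); it gives no height, score or p-value per peak. Per the submitters' processing notes, the build was mm9 and the tools were MACS 1.4.2, Bowtie2 2.2.2 and CASAVA, with no roles or settings. The name of the list carries a false discovery rate (FDR) label, but the sources used here do not explain it or state the thresholds. They also do not give the control for calling or the handling of reads that map to many places. Each of these can add or remove peaks in repeats. The read depth is unknown. Per the labels, the Malat1 and input samples belong to the same series.

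Positions were computed from the deposited starts and ends and are printed from 1. The distance of a peak is from its midpoint to the end of the last peak of its chromosome. Density is peaks per Mb, and the span of the rest begins where the first peak starts and stops at the window. Steps of 1 Mb run inward from the end. Gaps run from the end of a peak to the start of the next. Intervals are 95% exact binomial, exact Poisson or order-statistic intervals. They cover counting error only and treat peaks as independent, although peaks cluster. A gene table of a later build was not joined to mm9 positions, so no genes were assigned and no sequence is printed.

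Python 3.11.15, numpy 2.4.6, pandas 2.3.3, scipy 1.17.1 and matplotlib 3.10.9 were used. The regions and measures were chosen with earlier results of these data known. Named items were the 3 densest and 3 sparsest windows with ties, windows denser than the rest, and the 5 richest steps, 5 longest gaps, 5 widest and 5 narrowest peaks and 3 longest chains with ties. Other named items were chosen after their values were seen.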

Additional observations from a re-analysis of the deposited data

Results flagged for a closer look

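The last 10 Mb of chromosome X lie outside the autosomal comparison and held 73 peaks. They make 7.30 per Mb (exact 95% Poisson interval 5.72 to 9.18), against 13.7 per Mb in the rest of X, a ratio of 0.532. That ratio is near the 0.576 of the pooled autosomes and within their range of 0.0887 to 1.54. Only 4 autosomes had more peaks in their distal window, although the rest of X was denser than that of any autosome. The peaks of X were even along the window, with 37 in the outer and 36 in the inner 5 Mb, and 23.3% had a neighbour within 10 kb. Their median width was 5661 bp, against 6001 bp in the rest of X. No control library was analysed here.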

How the results depend on the processing

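The lower distal density kept its direction under all 10 alternatives and with each autosome left out in turn (0.530, without chromosome 18, to 0.596). These settings count many of the same peaks, so they are not independent of one another. The ratio of 0.576 became 0.716 with a window of 5 Mb, 0.540 with 20 Mb, 0.486 with the window moved 1 Mb inward and 0.668 without 1 Mb bins that hold no peak. The number of sparser autosomes was 17 in the main setting and 14 to 17 in the 10 alternatives, lowest with 5 Mb. The width difference ranged from -66.5 to 75.5 bp over 6 alternatives and from -121 to 36 bp with an autosome left out. The share with a neighbour within 10 kb, 37.9%, was 44.9% with 5 Mb, 33.8% with 20 Mb, 30.7% with the window moved inward, 17.0% once peaks closer than 5 kb were merged, and 35.1% to 39.4% with an autosome left out; it was 72.7% within 50 kb. The median gap, 43.7 kb, was 32.3, 49.3, 57.3 and 57.6 kb under the first 4 of these, and 42.5 to 46.7 kb with an autosome left out. Windows of other length or place hold other peaks, and merging removes the shortest gaps by construction; other causes were not tested. The end at the second-last peak, chosen after seeing the data, gave a ratio of 0.577. A stricter threshold and chromosome lengths were not run. No paired analysis was possible because L1, Malat1 and input have a single library each. Depth is unknown, so a stretch without peaks may hold signal below detection.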
